A study of Mus musculus with 12 samples.

Results

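The genes described here are 34 mouse genes of the heat shock response and of the unfolded protein response, the programs by which cells meet misfolded protein. The list was set by gene name, with no threshold on a measured value, and holds 15 heat shock genes of the cytosol and the mitochondria, and 19 genes of the endoplasmic reticulum (ER) and its stress response. All 34 were measured, among 22592 genes that had more than 20 reads in total and were tested. Their level was followed in the hippocampus of 12 mice on a C57BL/6 background, 3 in each of 4 groups. WT-Veh and WT-Nut3 were wild-type mice injected intraperitoneally 5 times, with vehicle in the former and with 10 mg/kg Nutlin-3 in the latter, and KO-Veh and KO-Nut3 were *Fmr1* KO mice treated likewise. Nutlin-3 inhibits MDM2, the ubiquitin ligase that degrades p53, and *Fmr1* KO mice, males in the study's methods, model fragile X syndrome. Treatment fell at 2 months of age and harvest at 6 months. The comparisons of treatment thus ask what was left of it long after the last injection, and those of genotype set KO against WT mice at 6 months. The samples were whole dissected hippocampi, in which fewer cells of a type and less RNA per cell cannot be told apart.

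In the heat shock response, the transcription factor HSF1 is held inactive by chaperones, is released when unfolded protein occupies them, and then binds heat shock elements in the promoters of chaperone genes. In the ER, the sensors IRE1, PERK and ATF6 are kept quiet by the chaperone BiP, and once released they lead to active XBP1, ATF4 and ATF6, of which XBP1 and ATF6 bind ER stress response elements. In neurons the ER chaperones serve a large output of membrane and secreted proteins, and FMR1, the protein missing in the KO mice, represses the translation of many neuronal mRNAs.

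The start regions of the genes, as given by RefSeq for GRCm38.p6 from 250 bases before to 50 bases after the start of transcription, were available for 26 of the 34, of which 10 were heat shock and 16 were ER genes. They are shown because elements of the 2 responses were found in members of 1 arm each, though not in all of them. The ER stress response element, searched on both strands as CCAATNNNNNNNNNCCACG, was found in 7 of the 16 ER genes and in none of the 10 heat shock genes. Among all 32851 promoters of this length, 39 held it, which is 0.119%. The capitals mark the fixed letters of the element, and each stretch is printed 5′ to 3′ along the strand that carries it.

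Hspa5 (chr2:34772020-34772048, plus strand): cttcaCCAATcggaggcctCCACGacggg
Creld2 (chr15:88819515-88819543, minus strand): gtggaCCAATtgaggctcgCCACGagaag
Calr (chr8:84847070-84847098, plus strand): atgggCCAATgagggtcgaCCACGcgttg
Pdia6 (chr12:17266486-17266514, plus strand): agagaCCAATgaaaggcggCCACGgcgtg
Dnajc3 (chr14:118937822-118937850, plus strand): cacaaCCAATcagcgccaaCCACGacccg
Canx (chr11:50325795-50325823, minus strand): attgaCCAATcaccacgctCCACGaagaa
Hsp90b1 (chr10:86705528-86705556, plus strand): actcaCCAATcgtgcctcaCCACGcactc
Hsp90b1 (chr10:86705633-86705661, minus strand): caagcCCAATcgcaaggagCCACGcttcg

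The shorter form of the element, ATTGG and CCACG with 1 base of any kind between them, was found in *Herpud1* alone among the 26 genes and in 12 of all promoters, 0.0365%. *Herpud1* was also the only one of them with TTGCATCA, an element bound by ATF4 with C/EBP proteins that 0.895% of all promoters held, and TGACGTGG, an element bound by XBP1 and ATF6, was in none of them and in 0.676% of all promoters. The 150 bases upstream of *Herpud1*, at chr8:94386279-94386428 on the plus strand, are shown with both matches in capitals.

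Herpud1: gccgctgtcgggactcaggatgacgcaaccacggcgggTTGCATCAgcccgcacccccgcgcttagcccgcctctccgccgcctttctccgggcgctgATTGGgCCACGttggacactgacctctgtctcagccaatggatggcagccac

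The heat shock element is a run of alternating GAA and TTC units. Written with 3 units as GAANNTTCNNGAA and searched on both strands, it was in 0.603% of all promoters and in 3 members, *Hspd1*, *Hspe1* and *Hsph1*. Written with 2 units as GAANNTTC, which lies inside the longer form, it was in 7.86% of all promoters and in 8 of the 10 heat shock genes, including *Hspa1a*, *Hspa1b*, *Hspb1*, *Dnaja1* and *Bag3*, and in no ER gene. The other order of 2 units, TTCNNGAA, was in 8.52% of all promoters and in 3 members, the same as the form with 3 units. *Hspd1* and *Hspe1*, the mitochondrial chaperonin and its co-chaperonin, lie head to head and share the same site. The upstream bases of *Hspa1b* differ from those of its twin *Hspa1a* at only 3 positions, since 247 of 250 are the same, and the 200 bases before the start of *Hspa1b* are shown at chr17:34959239-34959438 on the minus strand. Capitals mark the units of the match, and GAA or TTC outside it stay in lower case. A match is a description of the letters and not a site shown to be bound.

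Hspe1 (chr1:55088054-55088083, plus strand): gtccgTTCtaGAAccTTCcgGAAggccccg
Hspa1b: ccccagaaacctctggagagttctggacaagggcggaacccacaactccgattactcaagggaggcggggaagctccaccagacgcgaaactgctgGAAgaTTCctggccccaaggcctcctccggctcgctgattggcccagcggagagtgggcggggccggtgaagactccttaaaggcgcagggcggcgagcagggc

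The depth on genes was 17150820 to 20040482 reads a library. Values are given as CPM, counts per 1000000 reads after TMM scaling by edgeR, and only where levels of different genes are compared are they divided by exon length. *Fmr1* itself, the targeted gene, lay between 74.0 and 79.5 CPM in the 6 WT libraries and between 28.5 and 37.3 CPM in the 6 KO libraries. It fell in KO-Veh against WT-Veh by 1.18 ± 0.07 on the log2 scale (SE, 3 against 3 libraries, edgeR adjusted *P* = 1.76e-06), so the libraries carried the genotype of their labels.

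Per kilobase of exon, the members spanned from 2.48 RPKM for *Ern1*, which encodes the sensor IRE1, to 491 RPKM for *Hsp90ab1*, the constitutive cytosolic HSP90. The next in order were *Hspa8*, the constitutive HSC70, at 297 RPKM, and *Hsp90aa1*, the inducible HSP90, at 228 RPKM, and the ranges of these 3 over the 12 libraries did not overlap. *Calr*, the lectin chaperone calreticulin, was the most abundant ER member at 106 RPKM, above *Canx* at 64.2 RPKM without overlap. From *Canx* downward every neighbour in the order overlapped the next, with *Hspa5*, which encodes BiP, at 56.1 ± 13.4 RPKM (SD, n = 12). Of the 9 stress-inducible cytosolic genes, *Hspb1*, *Hspa1b*, *Bag3* and *Hspa1a* lay near the bottom, at 8.87, 7.49, 4.19 and 3.17 RPKM. The others of the 9 stood higher, *Hsp90aa1* as given above and *Cryab*, *Hsph1*, *Dnaja1* and *Dnajb1* at 44.9, 41.7, 30.3 and 17.9 RPKM. Reads that fit several places were not counted, which can lower the level of genes with near copies. Here 47.5% of the 100-base windows of *Hsp90aa1*, 49.9% of *Hspa1b*, 42.7% of *Hspb1* and 32.1% of *Hspa8* also occur in other genes. So do 56.5% of those of *Hspa1a* (47.1% in *Hspa1b*), 26.9% of *Hspd1* and 24.0% of *Dnaja1*. Windows were matched on both strands, so genes that overlap at the same place can add to these shares. Reads on 2 overlapping genes were not counted either. The 2 strand-specific counts together were 1.77 times the reads used for *Hspa1a*, 1.63 for *Manf*, 1.45 for *Hsp90b1* and 1.28 for *Ddit3*.

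**Figure D1:**
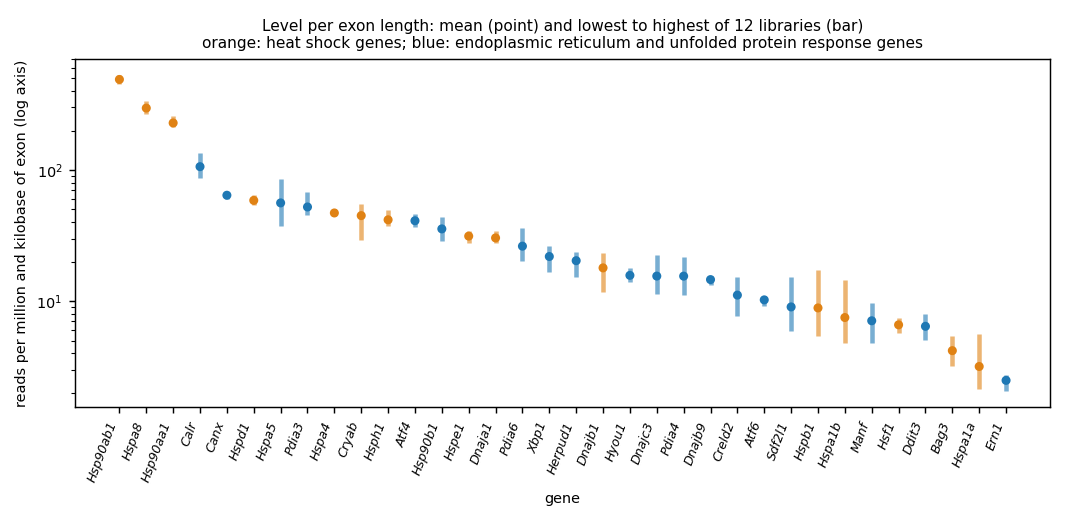
Mean level of each gene over the 12 libraries in RPKM, CPM per kilobase of exon, on a log axis (points), with the range from the lowest to the highest library (bars), heat shock genes in orange and ER genes in blue. *Hsp90ab1* stands highest at 491 and *Ern1* lowest at 2.48, and the bars are longest for *Hspb1*, *Hspa1b* and *Hspa1a*.

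The libraries also differed by animal number and by RNA of a neighbouring tissue. They carry animal numbers from RH1 to RH16, and the share of multimapping reads was 3.07% to 3.22% in the 6 with numbers up to RH8 but 3.33% to 3.55% in the 6 from RH9, a split that runs through all groups. RNA of choroid plexus epithelium, the secretory lining of the ventricles beside the hippocampus, was high in some libraries. The 20 markers of that tissue, *Ttr* the most abundant, summed to 6859 CPM in WT-Nut3 RH9. Among KO-Nut3 they summed to 7322 CPM in RH13, to 5295 CPM in RH6 and to 724 CPM in RH8, against 203 to 273 CPM in the other 8. All 3 KO-Nut3 libraries were thus above all 6 vehicle libraries, so choroid plexus RNA moved with that group. The numbers were not balanced either, KO-Nut3 and WT-Veh holding 2 animals up to RH8 and 1 from RH9, and KO-Veh and WT-Nut3 the opposite.

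In the main fits by the quasi-likelihood test of edgeR, none of the 34 genes passed the adjusted threshold of 0.05 in any comparison. KO-Nut3 against KO-Veh called 0.199% of all genes tested and 0 members (lowest adjusted *P* among the members 0.567), and KO-Veh against WT-Veh called 0.0177% of all genes and 0 members (0.303). The share of all genes called was 0% in WT-Nut3 against WT-Veh, and 0.00443% each in KO-Nut3 against WT-Veh, in KO-Nut3 against WT-Nut3 and in all KO against all WT, with lowest adjusted *P*-values among the members of 0.998, 0.218, 0.928 and 0.417. It was 0% in all Nut3 against all Veh and 0% for the interaction of genotype and treatment, where the members' lowest were 0.600 and 0.994. The values below therefore describe levels and unadjusted differences. The weight of an unadjusted *P* under 0.05 has to be read against the share of all genes that reached it in the same comparison.

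The question whether the KO genotype alone moved these genes rests on KO-Veh against WT-Veh. In this pair 8 of the 34 members were higher at an unadjusted *P* under 0.05, where 3.08% of all genes tested were, and 0 were lower, where 4.12% of all genes were. Of the members, 31 had a fold change above 0 and their median log2 fold change was 0.12, beside -0.00 over all genes tested, of which 48.9% were above 0. The count depended on single libraries, being 3 without KO-Veh RH10, 13 without WT-Veh RH15 and 17 without KO-Veh RH7. Over all genes tested, 522, 1168 and 782 were higher in these fits, against 696 in the main fit. The count of members was 6 with the number block as a term, where 2.34% of all genes were higher. Their median was then 0.08, against 0.09 to 0.21 when 1 library was left out. The 8 were 5 stress-inducible cytosolic chaperone genes, *Hspa1a*, *Hspa1b*, *Hsph1*, *Cryab* and *Dnajb1*, and 3 ER genes, *Manf*, *Pdia4* and *Xbp1*. Without overlap of the groups, 4 members were higher in KO-Veh (*Hspa1b*, *Dnajb1*, *Dnaja1* and *Hsp90aa1*) and 0 were lower, where 5.9% of all genes were higher and 6.46% lower in this way.

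*Dnajb1* (ENSMUSG00000005483, chr8:83608193-83612653 in mm10) encodes HSP40, the co-chaperone that hands clients to HSP70. It was counted at 37.7, 47.7 and 53.4 CPM in WT-Veh RH2, RH5 and RH15, at 43.2, 58.3 and 54.6 CPM in WT-Nut3 RH1, RH9 and RH14, at 65.5, 74.2 and 64.1 CPM in KO-Veh RH7, RH10 and RH16, and at 66.7, 73.3 and 50.1 CPM in KO-Nut3 RH6, RH8 and RH13. The 3 KO-Veh libraries all lay above the 3 of WT-Veh, and KO-Nut3 RH13 was the only KO library within the WT range. The log2 fold change of KO-Veh against WT-Veh was 0.55 ± 0.10 (SE), with an unadjusted *P* of 0.000116 and an adjusted *P* of 0.303. DESeq2, the tool of the study's methods, gave an adjusted *P* of 0.00121 for it, within a range of 1.49e-11 to 0.964 over its alternatives. Without WT-Veh RH15 the adjusted *P* in edgeR was 0.0166.

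*Hspa1b* (chr17:34956436-34959238) and *Hspa1a* (chr17:34969190-34972156) encode the same stress-inducible HSP70 and share part of their sequence, so the split of reads between them is uncertain. *Hspa1b* was at 17.4, 14.8 and 13.5 CPM in WT-Veh RH2, RH5 and RH15, at 15.5, 17.6 and 17.7 CPM in WT-Nut3 RH1, RH9 and RH14, at 20.5, 32.2 and 23.6 CPM in KO-Veh RH7, RH10 and RH16, and at 18.0, 40.3 and 20.8 CPM in KO-Nut3 RH6, RH8 and RH13. The 6 KO libraries all exceeded the 6 of WT, KO-Nut3 RH6 and WT-Nut3 RH14 being the nearest pair and KO-Nut3 RH8 and KO-Veh RH10 standing furthest out. For KO-Veh against WT-Veh it gave a log2 fold change of 0.74 ± 0.15, unadjusted *P* = 0.000267 and adjusted *P* = 0.313, and DESeq2 gave 0.00499 (1.7e-08 to 0.964 over the alternatives). *Hspa1a* was lower, at 7.88, 7.41 and 6.28 CPM in WT-Veh, at 6.90, 8.74 and 8.69 CPM in WT-Nut3, at 7.79, 12.6 and 11.1 CPM in KO-Veh, and at 11.2, 16.8 and 7.41 CPM in KO-Nut3, in the same order of animals. KO-Veh RH7 and KO-Nut3 RH13 lay within the WT range, and the log2 fold change of KO-Veh against WT-Veh was 0.55 ± 0.18 (unadjusted *P* = 0.00817, adjusted *P* = 0.61). *Hspa1a* overlaps *Gm20481* on the other strand, and reads on both genes were not counted. It had 2062 reads over the 12 libraries, against 3649 by the 2 strand-specific counts together, so the counts understate it. *Hspa1b* had 4600 reads by either way of counting.

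*Cryab*, which encodes the small heat shock protein alpha-B-crystallin of astrocytes and oligodendrocytes, was at 43.5, 48.9 and 69.3 CPM in WT-Veh RH2, RH5 and RH15, at 63.9, 63.4 and 80.7 CPM in WT-Nut3 RH1, RH9 and RH14, at 62.0, 65.2 and 75.0 CPM in KO-Veh RH7, RH10 and RH16, and at 76.0, 69.1 and 79.4 CPM in KO-Nut3 RH6, RH8 and RH13. WT-Veh RH2 and RH5 were the 2 lowest of the 12, and WT-Veh RH15 lay among the other groups. The 10 oligodendrocyte markers, *Mbp* the most abundant, also summed lowest in WT-Veh RH2 (3724 CPM), followed by RH5 (4398 CPM), against 5549 CPM in RH15 and 4544 to 6361 CPM in the other groups, and their part in the level of *Cryab* was not tested. The log2 fold change was 0.32 ± 0.13 in KO-Veh against WT-Veh (adjusted *P* = 0.669, range 0.00141 to 1 over the alternatives). It was 0.55 without WT-Veh RH15, with an edgeR adjusted *P* of 0.0442, and 0.19 without WT-Veh RH2. The same WT-Veh libraries served WT-Nut3 against WT-Veh, where *Cryab* was the only member with an unadjusted *P* under 0.05 and 1.84% of all genes were higher at that level, with 0.36 ± 0.15 (0.59 without WT-Veh RH15, 0.23 without WT-Veh RH2 and 0.24 without WT-Nut3 RH14). The members at that level there were 6 without WT-Nut3 RH1 and 0 without WT-Nut3 RH14 or WT-Veh RH2. Over all genes 628, 448 and 297 were higher in these fits, against 415 in the main fit. *Hsph1*, the HSP110 that exchanges nucleotide on HSP70, was at 314, 274 and 287 CPM in WT-Veh, at 280.4, 303 and 290.0 CPM in WT-Nut3, at 289, 359 and 342 CPM in KO-Veh and at 272, 324 and 300.4 CPM in KO-Nut3, in the same order of animals. The groups overlap, and its log2 fold change in KO-Veh against WT-Veh was 0.18 ± 0.08 (adjusted *P* = 0.68), with 0.12 when KO-Veh RH10 was left out and 0.28 when RH7 was.

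*Pdia4* (chr6:47796141-47813430), a disulfide isomerase that folds client proteins in the ER, was at 29.2, 26.6 and 38.8 CPM in WT-Veh RH2, RH5 and RH15, at 28.8, 34.1 and 37.6 CPM in WT-Nut3 RH1, RH9 and RH14, at 35.6, 43.6 and 40.6 CPM in KO-Veh RH7, RH10 and RH16, and at 36.7, 42.1 and 52.4 CPM in KO-Nut3 RH6, RH8 and RH13. The groups overlap through WT-Veh RH15, but within the libraries up to RH8 and within those from RH9 every KO library was above every WT library. Its log2 fold change of KO-Veh against WT-Veh was 0.34 ± 0.12 (unadjusted *P* = 0.0159, adjusted *P* = 0.631). *Manf*, a secreted ER protein with neurotrophic activity, had 0.34 ± 0.15 and *Xbp1*, the factor activated through IRE1 splicing, had 0.29 ± 0.13, with adjusted *P*-values of 0.68 and 0.679. Fitted with the number block these 3 were 0.23, 0.19 and 0.17. Without WT-Veh RH15 they were 0.52, 0.51 and 0.51, and without WT-Veh RH5 they were 0.23, 0.21 and 0.19. Reads on both *Manf* and a gene that overlaps it were not counted, and 5496 were used, against 8964 by the 2 strand-specific counts together.

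**Figure D2:**
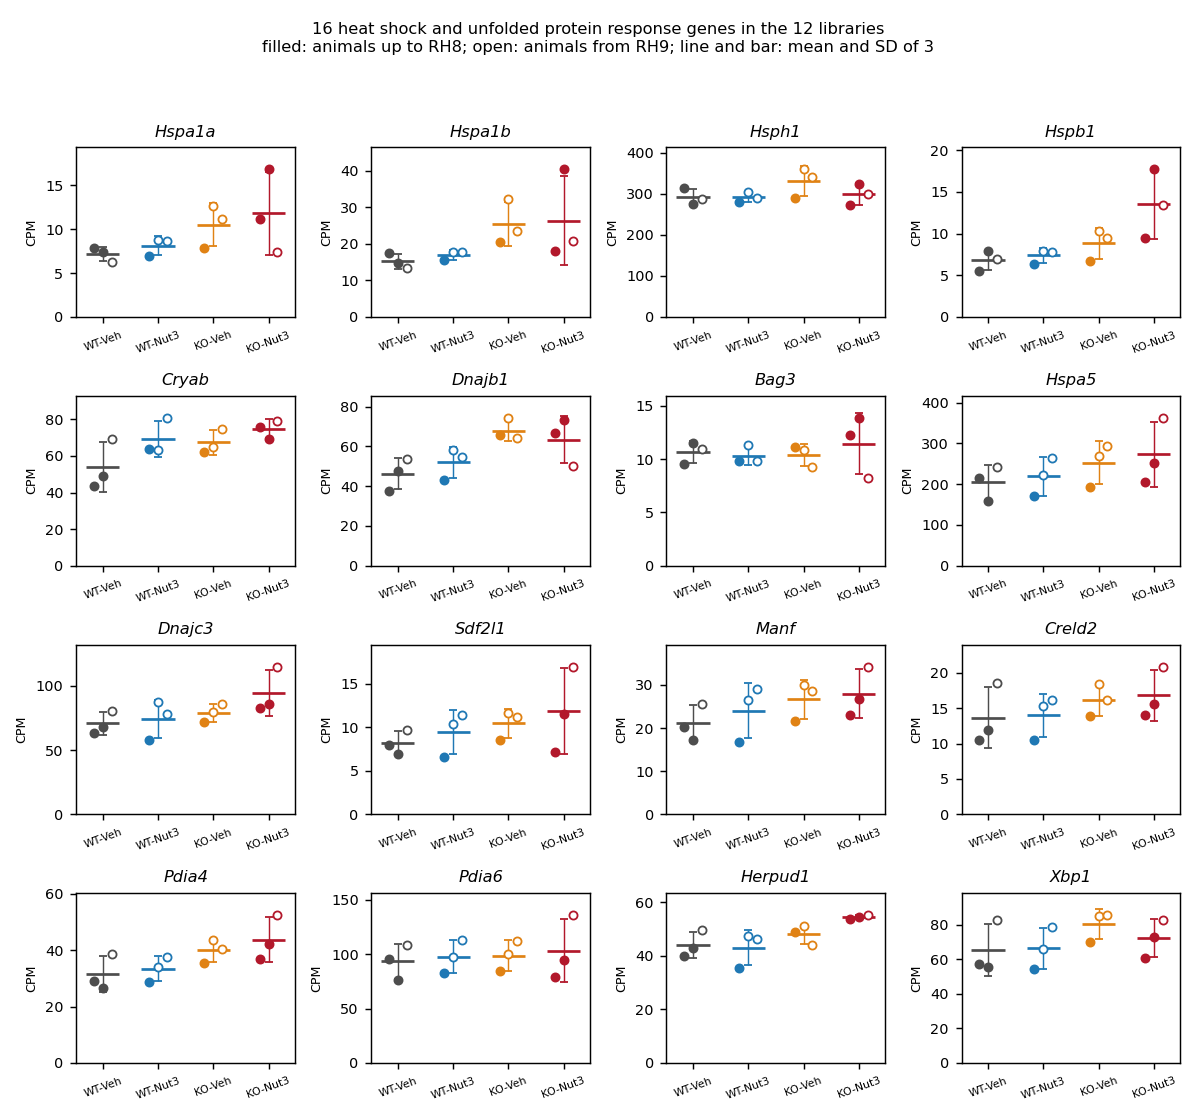
CPM of 16 genes in each library, by group, from 0 on a linear axis; filled points are animals up to RH8, open points animals from RH9, and the line and bar are the mean and SD of 3. *Hspa1b* and *Dnajb1* sit higher in KO-Veh than in WT-Veh without overlap, KO-Nut3 RH8 is highest for *Hspa1a*, *Hspa1b* and *Hspb1*, and KO-Nut3 RH13 for the ER genes *Hspa5*, *Dnajc3*, *Sdf2l1*, *Manf*, *Creld2*, *Pdia4*, *Pdia6* and *Herpud1*.

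Whether Nutlin-3 left a mark on these genes in KO mice is the question of KO-Nut3 against KO-Veh. Here 2 members were higher at an unadjusted *P* under 0.05, *Hspb1* and *Herpud1*, where 5.75% of all genes were, and 0 were lower, where 1.85% were. With the number block in the model 8 members were higher, beside 4.79% of all genes, and without KO-Nut3 RH6 there were 5. There was 1 without KO-Nut3 RH8, and without KO-Veh RH7 0 were higher and 1 was lower. Without KO-Nut3 RH13 2 were higher and 1 was lower. With all 12 libraries in 1 fit 1 was higher, and also 1 once the choroid plexus score was added to that fit. Over all genes 1298 were higher in the main fit, 1408 in the fit of 12 and 546 with the score. Without KO-Nut3 RH6, KO-Nut3 RH8, KO-Veh RH7 and KO-Nut3 RH13 they were 1052, 1492, 1032 and 1404. Lower were 418 in the main fit, 284 without KO-Veh RH7 and 653 without KO-Nut3 RH13. The median log2 fold change of the 34 was 0.05, beside 0.00 over all genes. It turned to -0.05 without KO-Veh RH7, to -0.03 without KO-Nut3 RH13 and to -0.03 with the choroid plexus score. In the fit of the 6 libraries, 5 of the 15 heat shock genes and 15 of the 19 ER genes were above 0, beside 50.8% of all genes. *Hspa1a*, *Hspa1b*, *Dnajb1*, *Pdia4* and the other genes that were higher in KO-Veh than in WT-Veh at the unadjusted level had no unadjusted *P* under 0.05 here, in either direction.

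*Hspb1* (chr5:135887919-135889563) encodes HSP27, a small heat shock protein that guards actin and is abundant in muscle and vessel walls. It was at 5.55, 7.88 and 6.95 CPM in WT-Veh RH2, RH5 and RH15, at 6.39, 7.95 and 7.85 CPM in WT-Nut3 RH1, RH9 and RH14, at 6.76, 10.3 and 9.51 CPM in KO-Veh RH7, RH10 and RH16, and at 9.43, 17.7 and 13.4 CPM in KO-Nut3 RH6, RH8 and RH13. KO-Nut3 RH8 and RH13 were the 2 highest of the 12, and KO-Nut3 RH6 lay within the KO-Veh range. Against KO-Veh, KO-Nut3 had a log2 fold change of 0.61 ± 0.23 (unadjusted *P* = 0.0266, adjusted *P* = 0.567), which was 0.36 without KO-Nut3 RH8 and 0.81 without KO-Nut3 RH6. Against WT-Veh the change was 0.99 ± 0.23 (adjusted *P* = 0.218, and 0.00616 in DESeq2, range 0.00407 to 1 over the alternatives). Fibroblast markers of meninges summed to 298 CPM in KO-Nut3 RH8 and mural markers to 289 CPM, the highest of the 12 libraries, against 68.6 to 229 and 169 to 260 CPM in the other libraries, and their part in the level of *Hspb1* was not tested.

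*Herpud1* (chr8:94386438-94395377) encodes an ER membrane protein of the degradation machinery, and carries both elements printed above. Its level was 40.0, 42.9 and 49.6 CPM in WT-Veh RH2, RH5 and RH15, 35.5, 47.5 and 46.3 CPM in WT-Nut3 RH1, RH9 and RH14, 49.0, 51.0 and 44.0 CPM in KO-Veh RH7, RH10 and RH16, and 53.9, 54.5 and 55.1 CPM in KO-Nut3 RH6, RH8 and RH13. The 3 KO-Nut3 libraries lay above all 9 others and close to each other. No other member had all 3 KO-Nut3 libraries above the 3 of KO-Veh, a pattern held by 7.85% of all genes. The log2 fold change against KO-Veh was 0.18 ± 0.07 (unadjusted *P* = 0.0329, adjusted *P* = 0.6) and was 0.05 once the choroid plexus score entered the fit.

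The other pairs of groups use the same libraries again and are given only by count. KO-Nut3 against WT-Veh had 9 members higher at an unadjusted *P* under 0.05, where 5.61% of all genes were (*Hspa1a*, *Hspa1b*, *Hspb1*, *Cryab*, *Dnajb1*, *Dnajc3*, *Manf*, *Pdia4* and *Herpud1*). That count was 5 without WT-Veh RH2 and 12 without KO-Nut3 RH6. With all 12 libraries in 1 fit it was 8, and 4 once the choroid plexus score was added. Over all genes 812, 1028, 1435 and 424 were higher in these 4 fits, against 1268 in the main fit. KO-Nut3 against WT-Nut3 had 4 members, where 2.8% of all genes were (*Hspa1b*, *Hspb1*, *Pdia4* and *Herpud1*), and 2 without WT-Nut3 RH1 or 7 without KO-Nut3 RH6. Over all genes 439 and 465 were higher in these fits, against 632 in the main fit. All Nut3 against all Veh had 2 members, where 5.02% were, *Hspb1* with 0.37 ± 0.16 (0.23 without KO-Nut3 RH8) and *Cryab* with 0.26 ± 0.10. It had 0 without WT-Nut3 RH14, 0 without WT-Veh RH2, 4 without WT-Nut3 RH1 and 0 with the choroid plexus score. Over all genes 1263, 989, 1183 and 356 were higher in these fits, against 1133 in the main fit. The interaction of genotype and treatment had 0 members, where 4.17% of all genes reached that level in either direction, and for *Hspb1*, the highest, it was 0.49 on the log2 scale. Fitted with the number block these counts were 14 in KO-Nut3 against WT-Veh, beside 5.32% of all genes higher, 12 in KO-Nut3 against WT-Nut3, beside 2.35%, and 5 for the interaction, beside 2.39%. No member passed the adjusted threshold in these fits.

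**Figure D3:**
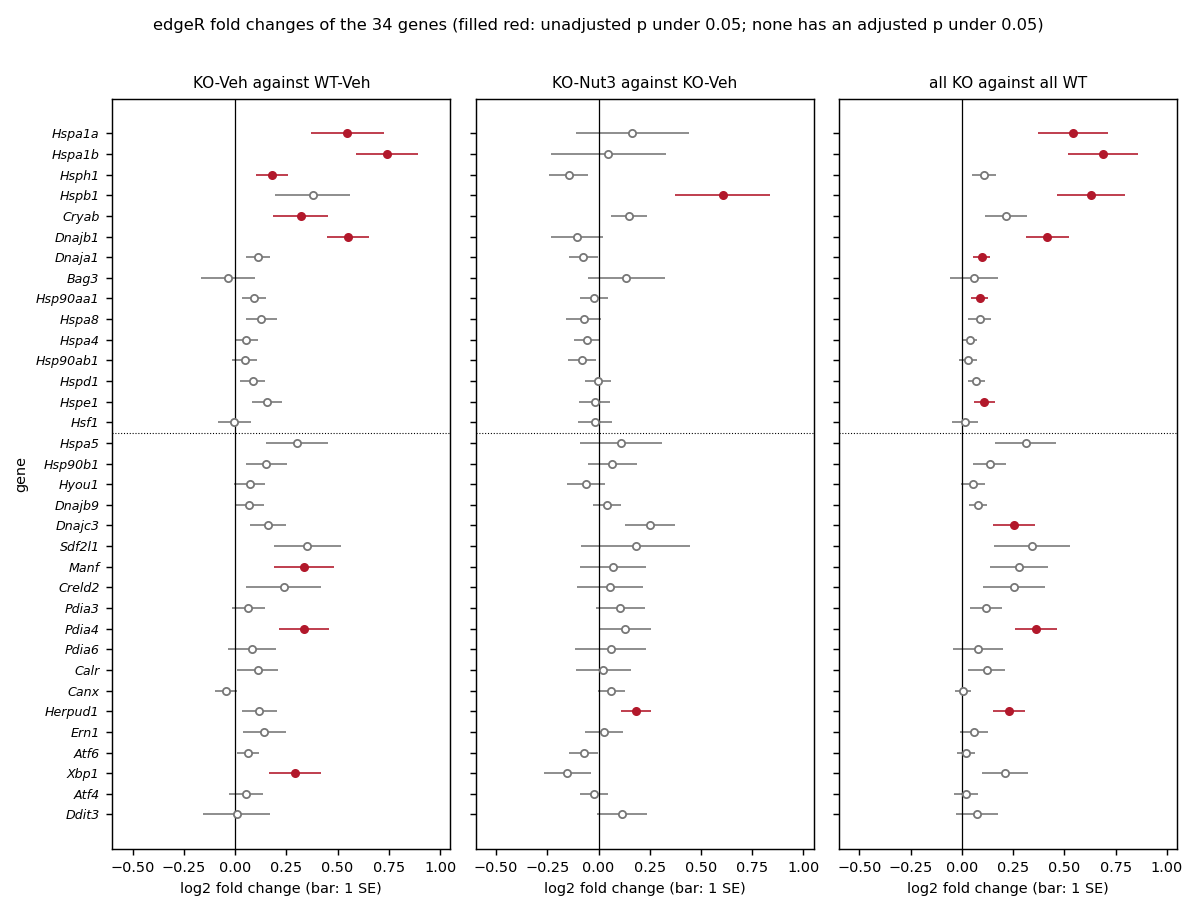
log2 fold changes of the 34 genes with 1 SE in KO-Veh against WT-Veh, KO-Nut3 against KO-Veh (3 against 3 libraries each) and all KO against all WT (6 against 6), heat shock genes above the dotted line. Red filled points have an unadjusted *P* under 0.05, and all 34 points of the third panel lie above 0.

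When all KO were set against all WT, with treatment as a term, 34 of the 34 members had a fold change above 0, beside 51.9% of all genes tested, and their median log2 fold change was 0.11 beside 0.01. The sizes ran from 0.01 for *Canx* to 0.69 for *Hspa1b*. At an unadjusted *P* under 0.05, 10 members were higher, where 3.8% of all genes were, and 0 were lower, where 4.36% were. Leaving out 1 library gave 6 (without WT-Nut3 RH1) to 15 (without KO-Nut3 RH6 or KO-Veh RH7). Over all genes tested, 610, 845 and 826 were higher in these fits, against 858 in the main fit. The 10 were 7 heat shock genes, *Hspa1b* (0.69 ± 0.17), *Hspb1* (0.63 ± 0.16), *Hspa1a* (0.54 ± 0.17), *Dnajb1* (0.42 ± 0.11), *Hspe1* (0.11 ± 0.05), *Dnaja1* (0.10 ± 0.04) and *Hsp90aa1* (0.09 ± 0.04), and 3 ER genes, *Pdia4* (0.36 ± 0.10), *Dnajc3* (0.25 ± 0.10, and 0.17 without KO-Nut3 RH13) and *Herpud1* (0.23 ± 0.08). The adjusted *P* was 0.417 for *Hspa1b*, *Hspb1*, *Dnajb1* and *Pdia4*, and DESeq2 gave 0.0387 for *Dnajb1* (3.1e-06 to 0.811 over the alternatives). *Hspa1b* was the only member with every KO library above every WT library, where 0.177% of all genes were. Chaperone genes share their regulators and are not independent of each other, so the count of genes above 0 carries no test.

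Set apart within the libraries up to RH8 and within those from RH9, every KO library was above every WT library in both blocks for 4 members, where 0.487% of all genes were. These were *Hspa1b*, *Pdia4*, *Hsp90aa1* and *Xbp1*, the last 2 with almost equal values at the nearest pair in 1 block. For *Hspa1b* the log2 difference of KO from WT was 0.63 up to RH8 and 0.64 from RH9, and for *Pdia4* it was 0.43 and 0.30 (3 against 3 libraries each). When the number block entered the model, 17 members were higher at an unadjusted *P* under 0.05 in all KO against all WT, where 4.42% of all genes were, and the lowest adjusted *P* was 0.066, for *Pdia4*.

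Many of the ER genes differed between low and high animal numbers. In each of the 4 groups, the libraries from RH9 were all above those up to RH8 for 11 of the 34 members, where 2.94% of all genes tested were, and below them for 0, where 2.85% were. These were 10 of the 19 ER genes, *Hspa5*, *Dnajc3*, *Sdf2l1*, *Manf*, *Creld2*, *Pdia3*, *Pdia4*, *Pdia6*, *Calr* and *Xbp1*, and 1 of the 15 heat shock genes, *Hspd1*. The median of the late libraries over that of the early ones was 1.495 for *Sdf2l1*, a subunit of the BiP complex, 1.40 for *Xbp1*, 1.37 for *Manf*, and 1.34 for *Hspa5* and *Creld2*, against a median ratio of 1.16 over the 19 ER genes, 1.06 over the heat shock genes and 0.997 over all genes. The share of reads on mitochondrial genes split the same way in each group, between 3.22% and 3.50% up to RH8 and between 3.44% and 3.92% from RH9, and its part in the ER values was not tested. What else set the late animals apart, such as a day of injection, dissection or sequencing, is not given in the sources used here.

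*Hspa5* (chr2:34771970-34777547), the gene of BiP, is the ER chaperone that holds the sensors. It was at 214, 158 and 243 CPM in WT-Veh RH2, RH5 and RH15, at 170, 222 and 265 CPM in WT-Nut3 RH1, RH9 and RH14, at 193, 270 and 294 CPM in KO-Veh RH7, RH10 and RH16, and at 206, 252 and 362 CPM in KO-Nut3 RH6, RH8 and RH13. In every group the libraries from RH9 were above those up to RH8, and the groups overlapped each other. *Sdf2l1* was at 8.002, 6.88 and 9.68 CPM in WT-Veh, at 6.54, 10.4 and 11.4 CPM in WT-Nut3, at 8.57, 11.6 and 11.2 CPM in KO-Veh, and at 7.15, 11.5 and 16.97 CPM in KO-Nut3, in the same order of animals. *Creld2*, a secreted ER stress protein, was at 10.5, 11.98 and 18.6 CPM in WT-Veh, at 10.5, 15.3 and 16.1 CPM in WT-Nut3, at 13.9, 18.4 and 16.2 CPM in KO-Veh, and at 13.98, 15.6 and 20.9 CPM in KO-Nut3. Both were highest in KO-Nut3 RH13, and within WT-Veh both were highest in RH15.

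*Manf* was at 20.3, 17.2 and 25.6 CPM in WT-Veh, at 16.7, 26.4 and 28.9 CPM in WT-Nut3, at 21.5, 29.9 and 28.5 CPM in KO-Veh, and at 23.1, 26.7 and 34.2 CPM in KO-Nut3, again in that order of animals. *Xbp1* was at 57.4, 55.7 and 83.0 CPM in WT-Veh, at 54.6, 65.7 and 78.7 CPM in WT-Nut3, at 70.2, 85.1 and 85.5 CPM in KO-Veh, and at 60.9, 73.0 and 83.0 CPM in KO-Nut3. Both had their lowest value in WT-Nut3 RH1. *Pdia6*, a disulfide isomerase bound to BiP, was at 95.8, 76.2 and 108.0 CPM in WT-Veh, at 82.5, 97.4 and 113 CPM in WT-Nut3, at 84.1, 99.9 and 112 CPM in KO-Veh, and at 79.3, 94.5 and 136 CPM in KO-Nut3. *Dnajc3*, a co-chaperone of BiP also known as an inhibitor of PERK, was at 63.4, 68.2 and 80.7 CPM in WT-Veh, at 58.2, 87.2 and 77.8 CPM in WT-Nut3, at 72.2, 79.4 and 86.2 CPM in KO-Veh, and at 82.7, 85.9 and 115 CPM in KO-Nut3. For both, KO-Nut3 RH13 was the highest of the 12 libraries.

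Most heat shock genes and most ER genes peaked in different libraries, though WT-Veh RH15 and KO-Veh RH16 each held the highest value of 1 heat shock gene and 2 ER genes. KO-Nut3 RH13 held the highest value of 14 of the 19 ER genes and of 0 of the 15 heat shock genes, while 8.65% of all genes tested were highest there. KO-Veh RH10 held the highest value of 7 heat shock genes and KO-Nut3 RH8 of 4, and of 0 ER genes each, beside 7.99% and 7.74% of all genes. WT-Nut3 RH1 was the lowest library for 11 members, WT-Veh RH2 for 8 and WT-Veh RH5 for 7, where 7.50%, 12.4% and 7.98% of all genes were lowest, and all 3 carry numbers up to RH8. As a mean of log2 deviations from the gene means, the ER genes were at 0.31 in KO-Nut3 RH13 and -0.24 in WT-Nut3 RH1, and the heat shock genes at 0.28 in KO-Nut3 RH8 and -0.18 in WT-Nut3 RH1. The choroid plexus markers, given above, were also highest in KO-Nut3 RH13. In WT-Nut3 RH9 and KO-Nut3 RH6, the next highest in these markers, the ER genes were at 0.02 and -0.06. The part of choroid plexus RNA in the ER values was not tested.

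**Figure D4:**
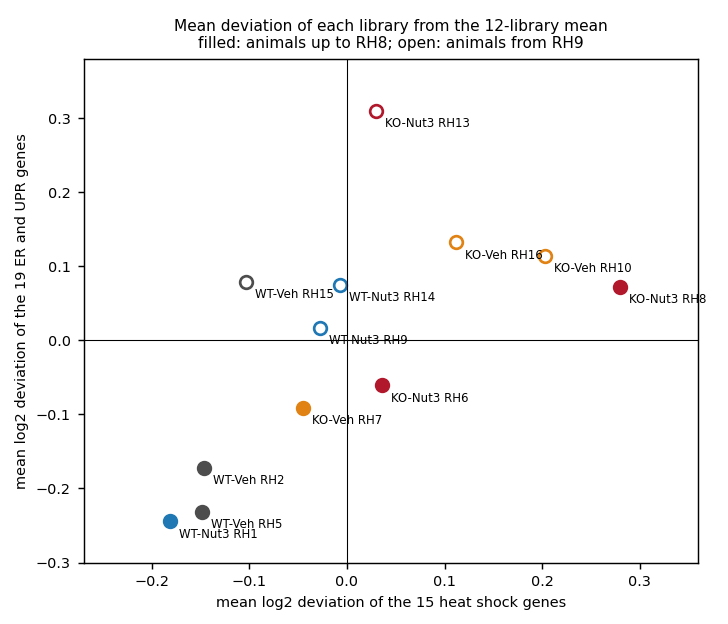
Mean log2 deviation from the 12-library mean of the 15 heat shock genes (horizontal) and the 19 ER genes (vertical) in each library, colored by group, filled for animals up to RH8 and open for animals from RH9. KO-Nut3 RH13 stands at 0.31 for the ER genes and 0.03 for the heat shock genes, KO-Nut3 RH8 at 0.07 and 0.28, and the 3 WT libraries up to RH8 are the lowest for both.

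Signs of activity and handling moved with the libraries too. The 12 immediate early genes, *Arc* the most abundant, summed to 380 CPM in WT-Veh RH2, the lowest, and to 929 CPM in KO-Veh RH16, the highest, and 9 of them were lower in KO-Nut3 than in KO-Veh at an unadjusted *P* under 0.05, where 1.85% of all genes were. In KO-Veh against WT-Veh 2 of them were higher at that level, where 3.08% of all genes were, *Arc* with 0.64 ± 0.20 and *Junb* with 0.31 ± 0.14, beside the inducible chaperone genes, and their part in those was not tested. The 7 genes that answer to temperature and stress hormones, *Per1* the most abundant, summed to 457 CPM in WT-Veh RH2 and 466 CPM in WT-Nut3 RH1, against 543 to 642 CPM in the other libraries. These 2 libraries were also among the lowest for the members, and the part of such signs in the values above was not tested. *Cirbp*, a cold-inducible RNA-binding protein of that list, was highest in WT-Veh RH2, where the sum was lowest. It was at 76.3, 74.2 and 51.9 CPM in WT-Veh, at 67.2, 58.7 and 49.3 CPM in WT-Nut3, at 66.2, 54.6 and 44.2 CPM in KO-Veh, and at 73.2, 63.4 and 56.8 CPM in KO-Nut3, in the order of animals used above, and in each group the libraries from RH9 were below those up to RH8.

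The remaining members are given by their range, apart from *Bag3*. *Hsp90ab1*, *Hspa8*, *Hspa4*, an HSP110 relative, and *Hsp90aa1* had a highest library between 1.14 and 1.26 times the lowest, as had *Dnaja1*, an HSP40 of the cytosol, and the mitochondrial *Hspd1* and *Hspe1*. *Hsf1*, the factor of the heat shock response, was between 40.3 and 52.3 CPM, with a log2 fold change of -0.00 ± 0.08 in KO-Veh against WT-Veh. *Bag3*, a co-chaperone that directs clients to autophagy, was at 9.55, 11.6 and 10.9 CPM in WT-Veh, at 9.79, 11.3 and 9.87 CPM in WT-Nut3, at 11.1, 10.9 and 9.23 CPM in KO-Veh, and at 12.3, 13.9 and 8.24 CPM in KO-Nut3, so that KO-Nut3 held both its highest and its lowest library. *Hsp90b1*, the HSP90 of the ER, ranged from 116 to 178 CPM, *Calr* from 249 to 389 CPM, *Pdia3* from 141 to 213 CPM and *Hyou1*, a large HSP70 relative, from 102 to 130 CPM. *Canx*, the membrane lectin chaperone, stayed between 282 and 320 CPM and *Dnajb9*, a co-chaperone that restrains IRE1, between 33.7 and 39.5 CPM. The sensor genes *Ern1* and *Atf6* were between 16.7 and 22.3 CPM and between 84.0 and 101 CPM. *Atf4*, the factor translated under PERK, lay between 86.4 and 108.0 CPM, and *Ddit3*, the stress factor CHOP that it induces, between 8.599 and 13.6 CPM, both lowest in WT-Veh RH2 and highest in WT-Veh RH15. None of these had an unadjusted *P* under 0.05 in KO-Veh against WT-Veh or in KO-Nut3 against KO-Veh.

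**Figure D5:**
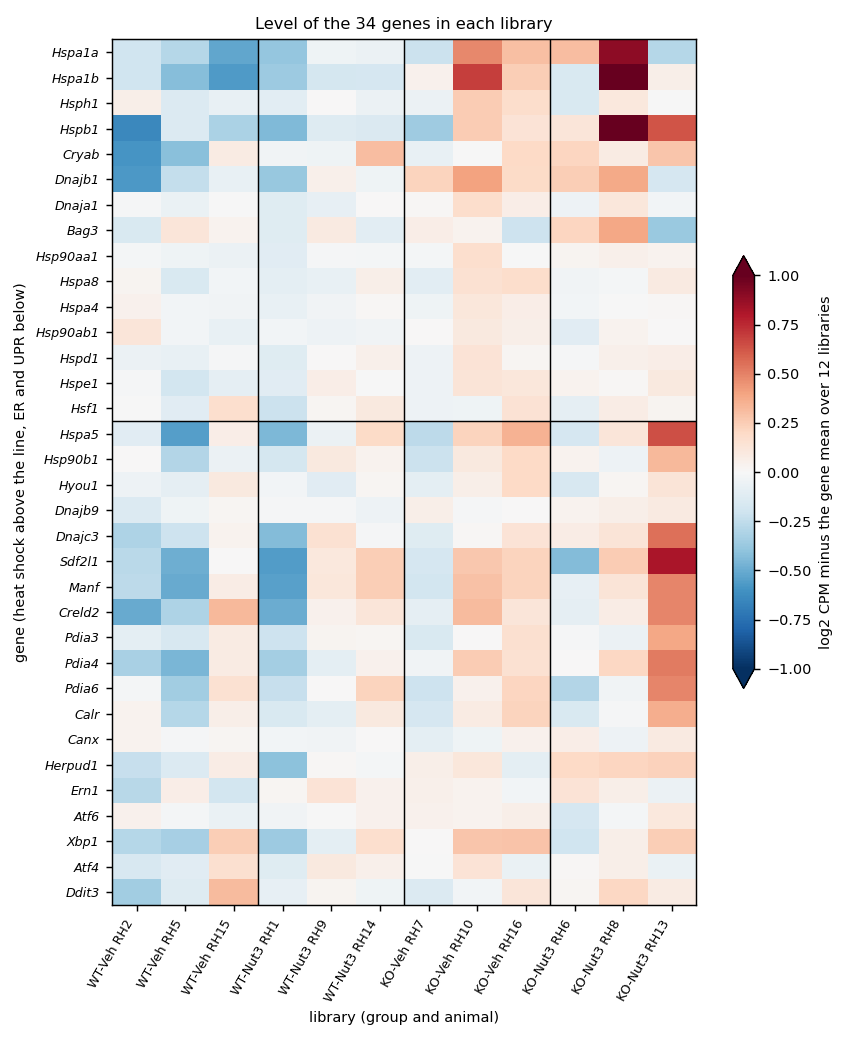
log2 CPM of each of the 34 genes minus its mean over the 12 libraries, colors clipped at -1 and 1, libraries in columns by group and genes in rows with the heat shock genes above the line. The columns WT-Veh RH2, WT-Veh RH5 and WT-Nut3 RH1 are blue for most rows, KO-Nut3 RH8 is red for the inducible heat shock genes, and KO-Nut3 RH13 for the ER genes.

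Around the 34 genes, 138 further tested genes of chaperones, ER folding, ER degradation, unfolded protein response signalling and ATF4 targets were followed. In KO-Nut3 against KO-Veh 5 of them were higher and 2 lower at an unadjusted *P* under 0.05, where 5.75% and 1.85% of all genes were, and none passed the adjusted threshold. Among the cytosolic chaperones, *Hspb8* (0.49 ± 0.10, adjusted *P* = 0.128) and *Hspb6* (0.92 ± 0.23, 0.223), small heat shock proteins of muscle cells, were higher, and *Dnajb5* (-0.29 ± 0.11) and *Hspb3* (-1.33 ± 0.56) were lower. Of the ER folding genes, *Serpinh1*, the collagen chaperone HSP47 of fibroblasts, was at 0.66 ± 0.12 with an adjusted *P* of 0.079 (0.000805 in DESeq2, and 0.0451 without KO-Nut3 RH6, range 0.000231 to 1), and *Nucb1* at 0.20 ± 0.07. The ATF4 target *Slc7a11*, the cystine transporter, was at 0.53 ± 0.17, and at 0.28 without KO-Nut3 RH8. Without KO-Nut3 RH6 *Dnajb5* was at -0.17, and without KO-Veh RH10 *Hspb3* was at -0.90. Without KO-Nut3 RH13 *Nucb1* was at 0.13. Fitted together with the choroid plexus score, *Hspb8*, *Hspb6*, *Serpinh1* and *Nucb1* were at 0.21, 0.27, 0.36 and 0.04. Fibroblast markers of meninges moved with these genes, 13 of 14 being higher in KO-Nut3 at an unadjusted *P* under 0.05 and 2 past the adjusted threshold, as did the 20 choroid plexus markers, of which 20 were higher and 5 passed.

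In KO-Veh against WT-Veh 11 of the 138 were higher and 2 lower at the unadjusted level, where 3.08% and 4.12% of all genes were, and 1 passed the adjusted threshold. This was *Wfs1*, an ER membrane protein mutated in Wolfram syndrome that is strong in CA1 pyramidal neurons, which fell by 0.44 ± 0.06 on the log2 scale (edgeR adjusted *P* = 0.0478). It was at 124, 125 and 134 CPM in WT-Veh RH2, RH5 and RH15, at 142, 100 and 121 CPM in WT-Nut3 RH1, RH9 and RH14, at 90.6, 90.2 and 102 CPM in KO-Veh RH7, RH10 and RH16, and at 116, 81.7 and 78.8 CPM in KO-Nut3 RH6, RH8 and RH13. The KO-Veh libraries were all below those of WT-Veh, but KO-Veh RH16 and KO-Nut3 RH6 lay above WT-Nut3 RH9. The call is at the edge of the threshold: the adjusted *P* was 0.0756 with the filterByExpr filter, 0.06 in limma-voom and 0.704 without KO-Veh RH10, but 0.00325 with the number block, in a range of 1.09e-08 to 0.884. The fold itself stayed between -0.49 and -0.40 on the log2 scale under the alternatives. Of the 8 CA pyramidal markers, which include *Wfs1*, 1 was higher and 1 lower at the unadjusted level in this pair. Of the 8 ependymal markers tested, 5 were higher, and their part in the differences of the members was not tested.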

How the data were processed

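Poly(A) RNA of 12 hippocampi was sequenced. The authors deposited counts, raw numbers of reads per gene and library, which they had made with STAR on mm10 and had not normalized, and the column without strand was used, since strand 1 held 50.1% to 50.4% of stranded reads. The 12 columns of a table of the whole series were not used. Labels give single reads and the methods paired reads, and the counts do not show which. No source says how far the mice of a group shared a litter, so *P*-values measure the spread between these animals.

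The members, lists and tests were chosen with earlier results of these data known. Counts were scaled by TMM and tested with the quasi-likelihood test of edgeR 4.0.16 (R 4.3.3), two-sided, each pair on its own 6 libraries, and genotype, treatment and interaction on 12, with Benjamini-Hochberg adjustment over the 22592 genes with more than 20 reads. Tests were tried on simulated data. Alternatives were DESeq2 1.42.0, limma-voom (limma 3.58.1), DESeq2 size factors, filterByExpr, every gene with at least 1 read, robust dispersion, all 12 libraries in 1 fit, the choroid plexus score as a term in that fit, the number block (RH8 and below, RH9 and above) as a term in each fit, and the omission of each library in turn. The comparison of KO with WT within both blocks was added after the values were seen.

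All 34 genes are named. Values of every library are given for those with an unadjusted *P* under 0.05 in KO-Nut3 against KO-Veh or KO-Veh against WT-Veh and for the 6 others of largest spread. Of the wider lists, genes past the adjusted threshold and up to 3 per list and direction with the lowest *P* in KO-Nut3 against KO-Veh are named. Exon lengths and coordinates are from GENCODE M21 and promoters from RefSeq, both on GRCm38. *Ddit3* has 2 identifiers, of which the one with the longest exon union was used. Lists of clock genes, endothelium, blood, oligodendrocytes, astrocytes, microglia, dentate granule cells, thalamus and neurons were followed as well.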

Additional observations from a re-analysis of the deposited data

How the results depend on the processing

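No paired analysis was possible because the groups share no animal number. No fold change followed here changed direction: of 719 values for 44 fold changes, 679 kept direction and side of the threshold and 31 newly passed. The exceptions were 9 values of *Wfs1*, which lost the threshold. These fold changes were chosen for an unadjusted *P* under 0.05 in the main fit, which favours a stable direction. All but that of *Wfs1* began outside the adjusted threshold, so keeping the side mostly meant staying uncalled. The median over all members, which was not chosen in this way, did change direction. In KO-Nut3 against KO-Veh this median log2 fold change was 0.05 in the main fit. It turned to -0.05 without KO-Veh RH7 and to -0.03 without KO-Nut3 RH13 or with the choroid plexus score. In the other alternatives it kept its sign. Counts of genes called at an adjusted *P* under 0.05 moved far more than the followed fold changes, and the cause was not tested. For KO-Nut3 against KO-Veh, 45 genes became 245 in DESeq2, 0 with all 12 libraries in 1 fit, 0 with the choroid plexus score, 544 with every gene of at least 1 read, 19 in limma-voom, 20 with the number block, and 6 (without KO-Veh RH10) to 266 (without KO-Nut3 RH8) when a library was left out. For KO-Veh against WT-Veh, 4 became 22 in DESeq2, 1 with all 12 libraries, 1 with the choroid plexus score, 272 with every gene, 21 with the block, and 2 (without KO-Veh RH10) to 11 (without WT-Veh RH15). For WT-Nut3 against WT-Veh, 0 became 249 with every gene, 11 with the block and 0 to 1 without a library (1 without WT-Nut3 RH1). For KO-Nut3 against WT-Veh, 1 became 222 in DESeq2, 2 with all 12 libraries, 416 with every gene, 3 with the block, 2 with robust dispersion and 1 to 197 (without KO-Nut3 RH8). For KO-Nut3 against WT-Nut3, 1 became 7 in DESeq2, 2 with the choroid plexus score, 38 with every gene and 0 to 7 without a library. The interaction had 1 in DESeq2, 1 with the choroid plexus score, 291 with every gene and 0 to 1 without a library. For all KO against all WT, 1 became 43 in DESeq2, 239 with every gene, 2 in limma-voom, 10 with the block, 6 with robust dispersion and 1 to 10 without a library. For all Nut3 against all Veh, 0 became 79 in DESeq2, 539 with every gene, 3 with the block and 0 to 19 without a library.

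Members called numbered 0 in the main edgeR fit of every comparison. In KO-Veh against WT-Veh they were 2 in DESeq2 (*Dnajb1*, *Hspa1b*), 6 with every gene (also *Cryab*, *Hspa5*, *Pdia4*, *Xbp1*) and 0 to 2 without a library, the 2 being *Dnajb1* and *Cryab* without WT-Veh RH15. In KO-Nut3 against WT-Veh they were 1 in DESeq2 (*Hspb1*) and 5 with every gene, in all KO against all WT 1 (*Dnajb1*) and 8, and with every gene 1 (*Cryab*) in WT-Nut3 against WT-Veh and 1 (*Cryab*) in all Nut3 against all Veh. Among all genes, DESeq2 and the fit with every gene called 22 and 272 in KO-Veh against WT-Veh. They called 222 and 416 in KO-Nut3 against WT-Veh, and 43 and 239 in all KO against all WT. With every gene, 249 were called in WT-Nut3 against WT-Veh and 539 in all Nut3 against all Veh. Without WT-Veh RH15, 11 were called in KO-Veh against WT-Veh. Fold changes were followed for members with an unadjusted *P* under 0.05 and the wider genes named. The 3 members with 3 units of the heat shock element became 8 with 2 units as GAANNTTC and stayed 3 as TTCNNGAA, and the 1 member with all KO above all WT became 4 within both blocks, a comparison chosen after seeing the data. Precision is limited by 3 mice a group and, for the least counted member, *Hspb1*, by 93 reads in its lowest library.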

Other observations

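Counts of other lists at an unadjusted *P* under 0.05 are read against the share of all genes at that level, 5.75% higher and 1.85% lower in KO-Nut3 against KO-Veh and 3.08% higher and 4.12% lower in KO-Veh against WT-Veh, and counts of 1 gene are near that share. In KO-Nut3 against KO-Veh, 5 of 10 endothelial, 3 of 9 mural, 4 of 10 oligodendrocyte, 3 of 8 ependymal, 1 of 8 thalamic and 1 of 13 clock genes were higher, and 0 of 5 blood, 0 of 9 astrocyte, 0 of 9 microglial, 0 of 8 dentate granule cell, 0 of 8 CA pyramidal and 0 of 8 neuronal genes were higher or lower. In KO-Veh against WT-Veh, 3 of 10 endothelial, 3 of 9 mural, 3 of 14 meningeal fibroblast, 1 of 9 microglial and 1 of 13 clock genes were lower, and 2 of 9 astrocyte, 3 of 20 choroid plexus and 2 of 7 temperature and stress hormone genes were higher. None of the genes counted here passed the adjusted threshold in edgeR.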
